A study of Mus musculus with 6 samples.

Results

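Oxidative phosphorylation subunits were described in mouse ovarian granulosa cells with and without ERK1/2 before and after an ovulatory dose of hCG. The members were the genes named on the array for the nuclear-encoded subunits of complexes I, II, III and IV and of ATP synthase, chosen by the start of the symbol (Ndufa, Ndufb, Ndufc, Ndufs and Ndufv without the Ndufaf assembly factors; Sdha to Sdhd; Uqcr; Cox4 to Cox8; Atp5), with the brightest probe set kept for each gene. They came to 82 genes of the 18194 measured, with 36 in complex I, 4 in complex II, 8 in complex III, 17 in complex IV and 17 in ATP synthase. Of these, 76 lay over the intensity floor (a mean log2 intensity of at least 6 over the arrays, which is an intensity of 64), against 11153 of all genes.

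Immature mice, 23 days of age by the labels, were given equine chorionic gonadotropin (eCG, 5 IU). It stands in for follicle-stimulating hormone and grows the follicles. After 48 h human chorionic gonadotropin (hCG, 5 IU) was given in place of the luteinizing hormone surge. Granulosa cells, the somatic cells that surround the oocyte, were taken at 0, 2.5 and 4 h after hCG from wild type mice and from mice labelled ERK1 knockout and ERK2 fl/fl;Cyp19CRE. These knockout mice lack ERK1 everywhere and lose ERK2 where the Cyp19 (aromatase) promoter drives Cre, which within the follicle is the granulosa cell. There were 6 groups with 1 array each, so no difference between 2 arrays has a replicate error and none carries a p-value. The labels do not say how many mice gave the RNA of an array. The series asks which granulosa cell transcripts depend on ERK1/2 during the response to hCG, and the comparisons here ask it of the respiratory chain.

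Oxidative phosphorylation passes electrons from NADH through complex I, and from succinate through complex II, to ubiquinone, then through complex III, cytochrome c and complex IV to oxygen. Complexes I, III and IV pump protons across the inner mitochondrial membrane, and ATP synthase uses their return to make ATP. Complex II is also the succinate dehydrogenase of the TCA cycle and is the only one of the complexes with no subunit from mitochondrial DNA. In the ovary, mitochondria of granulosa cells turning into luteal cells also carry out the first step of progesterone synthesis. None of the 13 proteins encoded by mitochondrial DNA was analysed here.

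Promoters of these genes are known for binding sites of NRF1, ETS family factors (GABP, also called NRF2) and YY1, so the stretches that hold such letters in the members are shown before the values. RefSeq promoter windows (GRCm38.p6, 250 bases before to 50 after each start) matched 67 of the 82 members, with 72 windows among 32851 in all. The NRF1 motif (its matches are the 10-base capitals of Sdha below; it is nearly its own reverse complement, so 1 place can match on both strands), the ETS letters CCGGAAG and the YY1 letters AANATGGCG were searched on both strands. The NRF1 motif was in 22.2% of the member windows and in 4.60% of all windows. The ETS letters were found in 23.6% of the member windows against 8.86% of all, and the YY1 letters in 12.5% against 2.38%. At least 1 of the 3 motifs was in 51.4% of member windows and in 14.2% of all. The capitals below mark the matches, and all sequences run 5′ to 3′ on the gene's strand within the bases upstream of the start. Sdha and Sdhd stand for complex II, Ndufs3 and Atp5g2 are members at least 1.5-fold lower in wild type cells at 4 h than at 0 h, and Cox6a1, Atp5h and Atp5j hold several matches.
Sdha, chr13:74350241-74350358, minus strand: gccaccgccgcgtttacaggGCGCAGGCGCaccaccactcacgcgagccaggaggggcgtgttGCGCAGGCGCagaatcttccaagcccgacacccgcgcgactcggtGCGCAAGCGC
Sdhd, chr9:50603869-50603948, minus strand: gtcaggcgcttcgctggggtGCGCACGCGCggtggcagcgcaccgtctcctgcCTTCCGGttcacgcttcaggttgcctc
Ndufs3, chr2:90904722-90904768, minus strand: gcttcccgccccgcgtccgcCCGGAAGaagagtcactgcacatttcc
Atp5g2, chr15:102671060-102671109, minus strand: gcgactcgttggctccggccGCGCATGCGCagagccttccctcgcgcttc
Cox6a1, chr5:115348959-115349140, minus strand: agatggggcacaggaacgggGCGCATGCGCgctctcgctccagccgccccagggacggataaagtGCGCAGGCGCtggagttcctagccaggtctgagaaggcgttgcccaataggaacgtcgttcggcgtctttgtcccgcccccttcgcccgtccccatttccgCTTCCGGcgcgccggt
Atp5h, chr11:115419931-115420080, minus strand: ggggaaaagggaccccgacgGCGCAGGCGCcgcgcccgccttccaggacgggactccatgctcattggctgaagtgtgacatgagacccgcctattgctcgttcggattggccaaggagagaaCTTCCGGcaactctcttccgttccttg
Atp5j, chr16:84835011-84835084, minus strand: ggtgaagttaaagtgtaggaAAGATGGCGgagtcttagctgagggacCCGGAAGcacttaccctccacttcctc

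Sdha held 3 NRF1 matches in 118 bases and no ETS or YY1 match. Sdhd held 1 NRF1 match and 1 ETS match. Cox6a1 held 2 NRF1 matches and 1 ETS match, and Atp5j 1 YY1 match beside 1 ETS match. Among genes with a window, at least 1 of these motifs was found in 15 of 32 in complex I, 3 of 3 in complex II, 3 of 5 in complex III, 3 of 12 in complex IV and 12 of 15 in ATP synthase. A match is a run of letters in this window, and binding was not measured.

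The 6 arrays had median intensities of 54 to 55, and 47.1% to 47.6% of probe sets lay over the floor. Whole-array shifts bear on every signed value below: over all 11153 genes the median log2 difference was -0.22 at 2.5 h and -0.21 at 4 h against 0 h in wild type cells, and 0.20 for knockout against wild type at 4 h, so values are also given less that median. The ratio of the Gapdh 3′ to 5′ control probe sets was 4.79 (wild type) and 5.21 (knockout) at 0 h, and 3.55 to 4.24 on the 4 arrays after hCG. All 9 granulosa markers measured (of 11 listed) were at least 64 on every array. Oocyte markers were present too, with 13 of 15 over the floor and a summed intensity of 21036 at 0 h in wild type cells, 38934 at 0 h in knockout cells, and 12930 to 16740 on the arrays after hCG. Endothelial markers summed to 525 to 966 and macrophage markers to 1225 to 1779 on all arrays. Surface epithelium markers summed to 2252 to 3204, smooth and striated muscle markers to 3321 to 5195 and red blood cell markers to 211 to 557. No check of the genotype labels was made from the targeted genes, which are not analysed here.

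In wild type cells, most subunit transcripts were lower 4 h after hCG than before it, and complexes I and II stood furthest below the bulk of genes. The median log2 difference was -0.41 over the 76 members and -0.21 over all genes, and 65 of 76 members were lower, a direction that 66.4% of all genes shared. At least 1.5-fold lower were 21 of the 76 members (27.6%), close to the 25.2% of all genes, and 0 members were 1.5-fold higher (8.69% of all genes). By the brightest probe sets, the largest difference of any member over the 9 comparisons was the 1.86-fold of Ndufv3 here. Dimmer probe sets of Sdha and Ndufs4 differed more, by -1.28 and -1.17 on the log2 scale. The count rested on the scaling: 2 members remained at least 1.5-fold lower after centring each array on all genes, and 12 when all probe sets of a gene were averaged. By complex the medians were -0.56 in complex I, -0.61 in complex II, -0.13 in complex III, -0.17 in complex IV and -0.35 in ATP synthase. Less the median of all genes these were -0.35, -0.41, 0.07, 0.04 and -0.14, so that complexes III and IV changed sign and lay near the bulk of genes, while complexes I, II and ATP synthase stayed below it.

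In knockout cells the subunits lay close to their 0 h level at 4 h. The median over members was 0.08 at 4 h against 0 h, with 0.02 over all genes, and 47 of 76 members were higher (51.5% of all genes). It was -0.02 in complex I, 0.15 in complex II, 0.22 in complex III, 0.12 in complex IV and 0.11 in ATP synthase. No member was 1.5-fold lower, against 11.9% of all genes, and 3 were 1.5-fold higher, against 9.73%. These were Uqcrq, Cox7c and Atp5d, and 0 members passed 1.5-fold once each array was centred on all genes. At 2.5 h the knockout median was 0.15 over members and -0.02 over all genes, with 63 of 76 members higher (47.0% of all genes) and 1, Uqcrq, at least 1.5-fold higher (7.63% of all genes). From 2.5 to 4 h 55 of 76 members were lower in knockout cells, against 43.0% of all genes, with a median of -0.08.

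**Figure D1:**
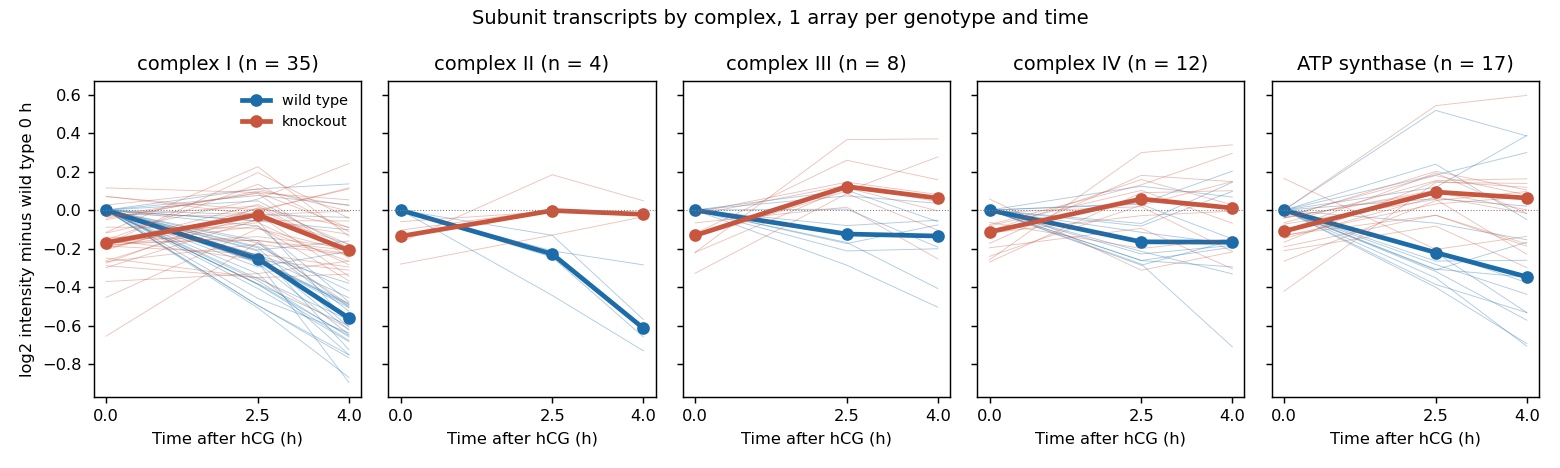
Log2 intensity less that gene's wild type 0 h value (vertical axis) against hours after hCG (horizontal axis), with a thin line per subunit gene over the floor and a thick line for the median of the complex, wild type in blue and knockout in red. At 4 h the wild type medians of complexes I and II stood at -0.56 and -0.61, and those of complexes III and IV at -0.13 and -0.17.

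**Figure D2:**
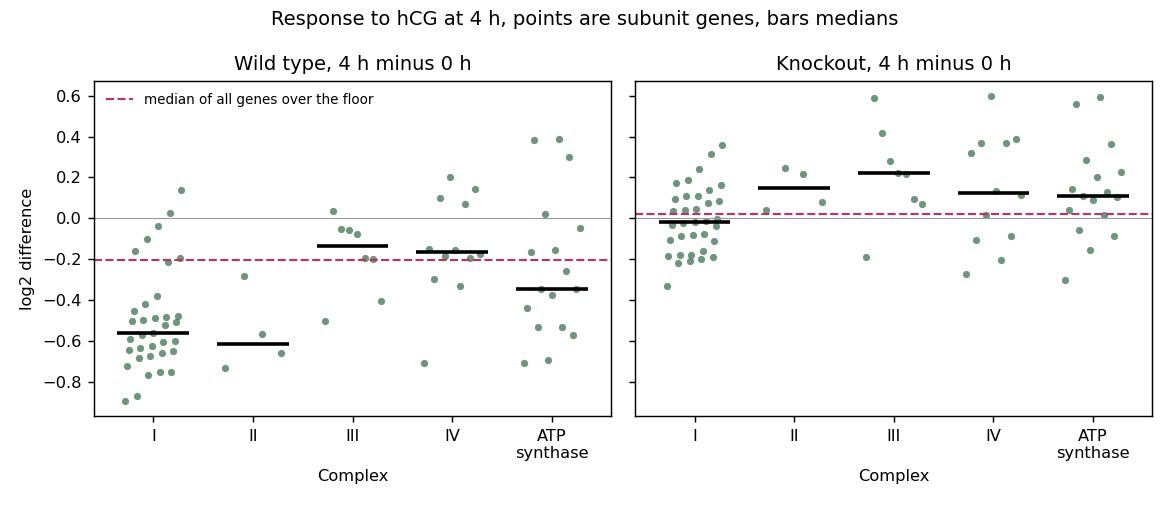
Log2 difference at 4 h against 0 h (vertical axis) for each subunit gene over the floor (points) by complex (horizontal axis), in wild type (left) and knockout cells (right), with black bars at the complex medians and a dashed line at the all-gene median. The dashed line is at -0.21 in wild type cells and 0.02 in knockout cells, and no complex median in knockout cells lies below -0.02.

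The order of the wild type values over time was also read. A stepwise order, with 0 h above 2.5 h and 2.5 h above 4 h, held in 50 of 76 members (65.8%) and in 39.2% of all genes. It held in 30 of 35 members of complex I, 4 of 4 of complex II, 2 of 8 of complex III, 4 of 12 of complex IV and 10 of 17 of ATP synthase. These counts use values as deposited and rest in part on the whole-array shift at 2.5 h. After centring on all genes, 39 members were below 0 h at 2.5 h and 37 above it. At 2.5 h against 0 h 62 of 76 members were lower, as were 72.2% of all genes, and 0 passed 1.5-fold, where 13.1% of all genes were lower and 5.81% higher. Their median equalled that of all genes to 2 decimals, -0.22. Among groups by role, formed after the values were seen, the medians of 2 already stood apart at 2.5 h. Less the all-gene median, the 6 core subunits of complex I (named below) had a median of -0.18. The 5 ATP synthase subunits outside its head, stalks and ring (Atp5j2, Atp5k, Atp5l, Atp5md and Atp5mpl) had one of 0.28. Before that subtraction these 5 were spread from -0.32 in Atp5k to 0.18 in Atp5mpl. The medians of the other groups, less the all-gene median, lay between -0.09 and -0.02. The distance of the pooled median from the bulk of genes lay between 2.5 and 4 h, where the member median was -0.21 and that of all genes -0.01. In that interval 60 of 76 members were lower, as were 50.5% of all genes, and 1 member, Ndufv3 with 1.54-fold, was at least 1.5-fold lower (7.85% of all genes).

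Complex I takes electrons from NADH on a flavin at the tip of its matrix arm and passes them along iron-sulfur clusters to ubiquinone. Ndufv1 encodes the subunit that holds the flavin and binds NADH. Its intensity was 5265, 3832 and 3386 at 0, 2.5 and 4 h in wild type cells and 5362, 5681 and 5245 in knockout cells. The 3 knockout values and the wild type value at 0 h lay together, and both wild type values after hCG lay below them. The log2 difference of knockout against wild type was 0.03 at 0 h, 0.57 at 2.5 h and 0.63 at 4 h.

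Ndufv3, an accessory subunit of the same flavoprotein part, had the largest differences at 4 h among the members by their brightest probe sets. It read 1500, 1244 and 807 in wild type cells and 1625, 1598 and 1408 in knockout cells. Wild type at 4 h was the lowest array by a wide margin, 1.86-fold below wild type at 0 h and 1.74-fold below knockout at 4 h. Ndufb9, an accessory subunit of the membrane arm, came next for wild type cells at 4 h against 0 h, with 4140, 2912 and 2268 in wild type cells and 3639, 3537 and 3374 in knockout cells. Its second probe set differed by -0.55 on the log2 scale in wild type cells at 4 h, against -0.87 for the brighter.

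Ndufs7 and Ndufs8 encode iron-sulfur subunits beside the ubiquinone site, and Ndufs3 a further subunit of that region. Ndufs7 read 2683, 1905 and 1594 in wild type cells and 2258, 2104 and 2132 in knockout cells. Ndufs8 read 4164, 3141 and 2595 in wild type cells and 3385, 4027 and 3815 in knockout cells, and 5 of its 6 probe sets were lower in wild type at 4 h than at 0 h, the dim one of 0.10 being the exception. Ndufs3, whose ETS letters are printed above, was 2762, 2197 and 1642 in wild type cells and 2704, 2934 and 2322 in knockout cells. In all 3 genes the wild type values stepped down at each time, and the wild type array at 4 h was the lowest of the 6.

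Complex I subunits were grouped by role after their values were seen. The 6 measured core subunits of the matrix arm were Ndufv1, Ndufv2, Ndufs1, Ndufs3, Ndufs7 and Ndufs8. By their brightest probe sets, all 6 were at least 1.5-fold lower in wild type cells at 4 h, as were 25.2% of all genes. Their log2 differences lay between -0.75 and -0.64 around a median of -0.68. Further probe sets spread wider, with -0.42 in Ndufv1, -0.93 in Ndufv2 and 0.10 in a dim one of Ndufs8. The 29 accessory subunits spread wider, from -0.89 in Ndufv3 to 0.14 in Ndufb1 with a median of -0.50, and 10 of them were at least 1.5-fold lower. These 10 were Ndufa5, Ndufa6, Ndufa12, Ndufab1, Ndufb3, Ndufb9, Ndufb10, Ndufc1, Ndufc2 and Ndufv3. Less the median of all genes, 0 of the 6 core subunits and 2 of the 29 accessory subunits (Ndufb9 and Ndufv3) were past 1.5-fold. In knockout cells the medians of core and accessory subunits over the same interval were -0.06 and -0.01.

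Among the accessory subunits, Ndufa5 had the lowest knockout difference at 4 h against 0 h (-0.33), with 2230, 1583 and 1311 in wild type cells and 1826, 1749 and 1453 in knockout cells. Its second, dimmer probe set gave 0.04 for that difference, with 403, 440 and 414 in knockout cells. Ndufc2, the brightest complex I probe set, read 9024, 6923 and 5951 in wild type cells and 8124, 7543 and 7272 in knockout cells. Ndufb10 read 602, 511 and 391 in wild type cells and 633, 592 and 600 in knockout cells. All 3 were lowest in wild type cells at 4 h. By the brightest probe sets, only in Ndufb10 did the knockout array at 4 h stay within the range of the other knockout arrays.

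A few complex I genes stood outside this order. Ndufa4, named for complex I but since found with complex IV, read 1529, 1612 and 1558 in wild type cells and 1408, 1591 and 1808 in knockout cells, with knockout at 4 h the highest array. Ndufb1 was dim and flat, from 101 to 111 on all arrays. Ndufa4l2, the hypoxia-responsive relative of Ndufa4, read 118, 122 and 103 in wild type cells and 75, 105 and 84 in knockout cells, and it was the only member at least 1.5-fold lower in knockout than wild type cells at 0 h. Its values lie close to the floor of 64.

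Complex II oxidises succinate. Sdha encodes the flavoprotein, Sdhb the iron-sulfur subunit, and Sdhc and Sdhd the membrane anchors. Sdha read 4650, 3421 and 2803 in wild type cells and 4461, 4629 and 4589 in knockout cells. Sdhb read 2923, 2670 and 1972 in wild type cells and 2603, 3320 and 3023 in knockout cells. Sdhc read 1193, 1007 and 756 in wild type cells and 1110, 1195 and 1173 in knockout cells. In these 3 genes the wild type array at 4 h was the lowest of the 6, and it was 1.64-fold (Sdha), 1.53-fold (Sdhb) and 1.55-fold (Sdhc) below the knockout array of the same time.

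Sdhd differed less, with 2120, 1831 and 1741 in wild type cells and 1746, 1938 and 2070 in knockout cells, so that its highest and lowest arrays were wild type at 0 and 4 h and knockout at 0 h lay beside the lowest. Other probe sets of these genes varied in size: a second Sdha probe set was lower by a log2 difference of -1.28 in wild type at 4 h and a further dim one by -0.15, and the second probe sets of Sdhc and Sdhd by -0.14 and -0.19. With all probe sets averaged, the complex II median in wild type cells was -0.46 in place of -0.61. For knockout against wild type at 4 h, the second probe sets of Sdhc and Sdhd gave 0.06 and 0.01. The further Sdha probe sets gave 0.85 and, for the dim one, 0.28.

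**Figure D3:**
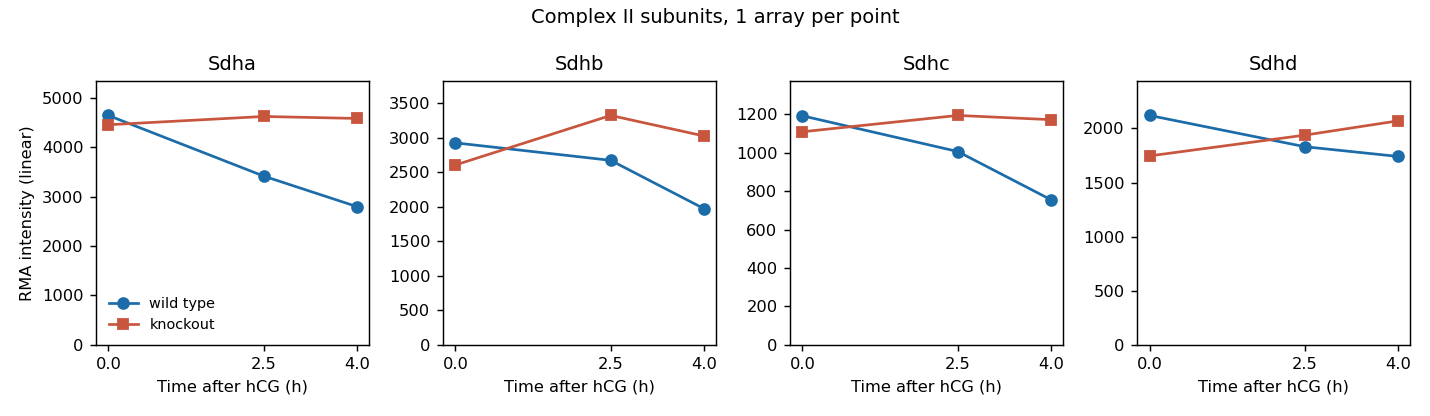
RMA intensity on a linear scale from 0 (vertical axis) of the 4 complex II subunits against hours after hCG (horizontal axis), with 1 array per point, wild type as blue circles and knockout as red squares. Sdha ended at 2803 in wild type cells and 4589 in knockout cells, and the lines of all 4 genes cross between 0 and 2.5 h.

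Complex III passes electrons from ubiquinol to cytochrome c. Uqcrb, its brightest probe set, read 14168, 12562 and 13434 in wild type cells and 12851, 15171 and 17157 in knockout cells. A dimmer Uqcrb probe set read 1071, 1330 and 1462 in wild type cells and 937, 1150 and 1322 in knockout cells. For knockout against wild type at 4 h it gave -0.15, where the brighter gave 0.35. Uqcrc2, a core protein of the matrix side, read 4111, 3372 and 2899 in wild type cells and 3927, 4155 and 3449 in knockout cells, and was the complex III member with the lowest wild type difference at 4 h (-0.50). Uqcr10 stayed between 310 and 391, and Uqcrh between 2857 and 3292. Uqcr11 read 2332, 2076 and 1759 in wild type cells and 1858, 2475 and 2169 in knockout cells.

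Uqcrq, a small subunit next to cytochrome b, was flat in wild type cells at 1098, 1102 and 961 and read 943, 1415 and 1419 in knockout cells. Both knockout arrays after hCG lay above the other 4. Its only other probe set over the floor was dim (55 to 86) and gave -0.32 for knockout against wild type at 4 h, where the brighter gave 0.56.

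Complex IV reduces oxygen, and its catalytic subunits are made in the mitochondrion, so the genes measured encode the surrounding subunits. Cox5b, which binds zinc and was the brightest, read 13529, 11285 and 11029 in wild type cells and 12003, 15332 and 14991 in knockout cells. Cox4i1, the subunit through which ATP inhibits the enzyme, read 11350, 9469 and 9934 in wild type cells and 10722, 12185 and 10826 in knockout cells. Cox6a1, whose promoter letters are printed above, read 11304, 9745 and 8987 in wild type cells and 9572, 11504 and 12527 in knockout cells. In these 3 genes, and in Cox6b1 and Cox7a2, the 2 arrays after hCG were above 0 h in knockout and below it in wild type cells. The same order held in 33 of 76 members (43.4%) and in 15.5% of all genes, a tally made after the values were seen. It uses values as deposited and depends on the scaling. Once each array was centred on all genes, 37 members were above 0 h in wild type cells at 2.5 h and 39 below it.

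The other 7 complex IV genes over the floor had different orders. Cox5a read 4708, 4824 and 5416 in wild type cells and 4469, 5157 and 5775 in knockout cells, highest at 4 h in both genotypes. Its other probe sets were also highest at 4 h in both. For knockout against wild type at 4 h they gave -0.35 and -0.27, where the brightest gave 0.09. Cox6c read 4582, 3758 and 4110 in wild type cells and 4768, 3691 and 3942 in knockout cells, highest at 0 h in both. Its second probe set was also highest at 0 h in wild type cells (4291, 3894 and 3787). In knockout cells that probe set was lowest at 0 h (3971, 4229 and 4145). Cox7a2l, which holds complexes III and IV together in supercomplexes, was the complex IV gene at least 1.5-fold lower in wild type cells at 4 h, with 4899, 4035 and 2996 against 4858, 4960 and 4223 in knockout cells.

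Most forms of complex IV subunits that mark other tissues were under the floor. Cox4i2 (24 to 31), Cox6b2 (32 to 46), Cox7a1 (14 to 26), Cox7b2 (12 to 14) and Cox8b (29 to 39) were under 64 on all arrays, as was Ndufb4 of complex I. Their partners were measured well over it: Cox4i1 at 9469 or more, Cox6b1 at 4552 to 5885, Cox7a2 at 5120 to 6693 and Cox8a at 748 to 885. Cox6a2, the heart and muscle form, was over the floor at 115 to 145, as was Cox8c, the testis form, at 223 to 283, and neither reached 1.5-fold in any of the 9 comparisons. Cox7c was dim, at 287, 271 and 307 in wild type cells and 240, 353 and 363 in knockout cells.

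ATP synthase has a catalytic head and central stalk, a ring of c subunits in the membrane, and a peripheral stalk that holds the head still. Atp5a1, the alpha subunit of the head, read 10315, 7895 and 7135 in wild type cells and 10032, 11009 and 10324 in knockout cells. Atp5c1, the gamma subunit that turns within it, read 10352, 7841 and 6404 in wild type cells and 9841, 10761 and 8833 in knockout cells. In both, the wild type arrays after hCG were the lowest of the 6.

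Atp5d, the delta subunit of the central stalk, was higher after hCG than at 0 h in both genotypes. It read 5737, 8212 and 7492 in wild type cells and 5738, 8355 and 8669 in knockout cells, and a second probe set was higher at 4 h by 0.52 in wild type cells and 0.59 in knockout cells. Atp5md and Atp5mpl, small membrane subunits, were highest at 4 h in wild type cells with 1286, 1396 and 1682 for Atp5md and 1311, 1488 and 1613 for Atp5mpl. In knockout cells they read 1070, 1331 and 1375 and 1168, 1454 and 1423.

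The c ring has 3 genes that encode the same mature protein behind different import signals, and their values differed in order. Atp5g3, the brightest ATP synthase probe set, read 17670, 14710 and 14754 in wild type cells and 17173, 18977 and 18460 in knockout cells. Atp5g2 read 1129, 885 and 692 in wild type cells and 976, 1066 and 918 in knockout cells, 1.63-fold lower in wild type at 4 h than at 0 h. Atp5g1 read 506, 597 and 489 in wild type cells and 378, 559 and 557 in knockout cells, lowest in knockout at 0 h. The 4 peripheral stalk genes (Atp5h, Atp5j, Atp5o and Atp5pb) lay between -0.44 and -0.35 in wild type cells at 4 h. Among them Atp5pb was also lower in knockout cells (6610, 5122 and 5368), and its second probe set gave 0.03 in wild type cells.

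Before hCG, knockout cells had slightly lower subunit levels than wild type cells. The median log2 difference was -0.14 over members and -0.03 over all genes, and 69 of 76 members were lower, against 56.1% of all genes. By complex the medians ran from -0.17 in complex I to -0.11 in complex IV and ATP synthase. At 1.5-fold 1 member was lower (3.30% of all genes) and 0 higher (3.85%). The lower direction of the members at 0 h held under cyclic loess (-0.10) and under centring on all genes (-0.11).

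At 2.5 h the order was the reverse, with knockout above wild type in 65 of 76 members and in 66.7% of all genes. The median was 0.22 over members and 0.14 over all genes, and no member passed 1.5-fold, where 6.81% of all genes were higher and 5.54% lower. At 4 h the median was 0.31 over members and 0.20 over all genes, and again 65 of 76 members were higher (68.2% of all genes). At least 1.5-fold higher were 7 members (9.21%), fewer than the 18.1% of all genes, and 0 were 1.5-fold lower, where 6.62% of all genes were. The 7 were Ndufb10, Ndufc1, Ndufv1, Ndufv3, Sdha, Sdhb and Sdhc. Just inside 1.5-fold was Ndufc1 with a log2 difference of 0.59, and just outside Ndufb9 with 0.57. After centring on all genes 1 member remained at 1.5-fold.

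By complex the knockout to wild type medians at 4 h were 0.34 in complex I, 0.63 in complex II, 0.25 in complex III, 0.17 in complex IV and 0.33 in ATP synthase. Less the median of all genes they were 0.14, 0.43, 0.05, -0.03 and 0.13, so complex IV changed sign and complex II stood furthest out. With all probe sets averaged, the complex II median without that subtraction was 0.39 in place of 0.63, still the largest. The differences between genotypes at 4 h and the wild type differences from 0 h share the wild type array at 4 h, on which 49 of 76 members (64.5%) and 36.2% of all genes had their lowest value of the 6 arrays.

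**Figure D4:**
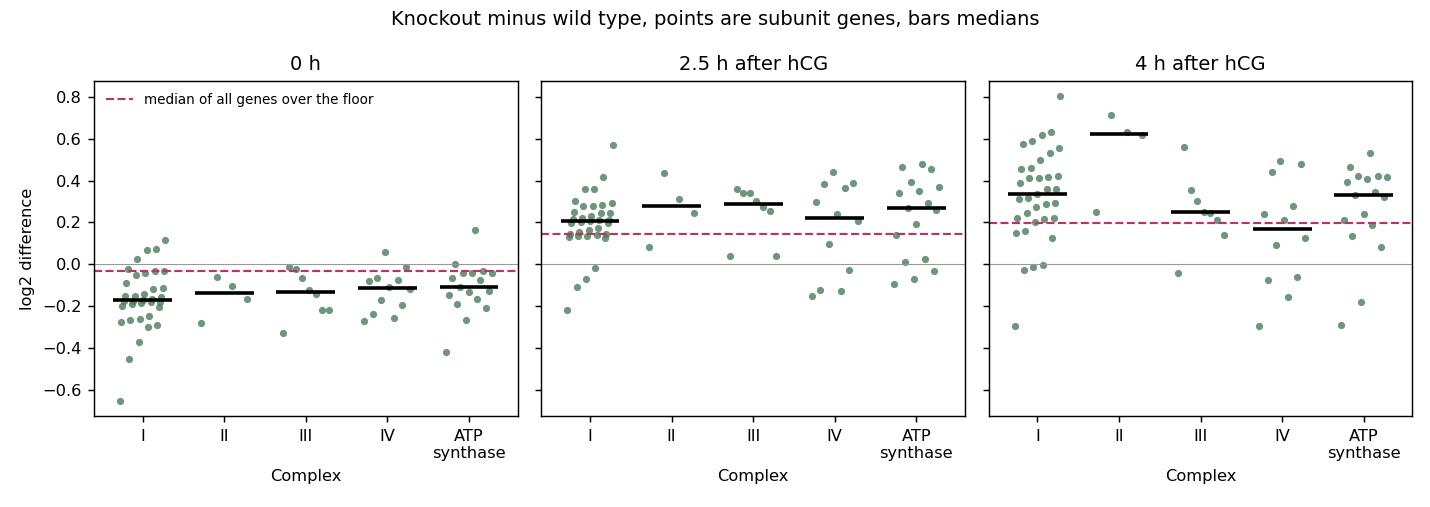
Log2 difference of knockout against wild type (vertical axis) for each subunit gene over the floor (points) by complex (horizontal axis) at 0, 2.5 and 4 h after hCG, with black bars at complex medians and a dashed line at the all-gene median. The member median was -0.14 at 0 h, 0.22 at 2.5 h and 0.31 at 4 h, and the dashed line is at -0.03, 0.14 and 0.20.

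Fits over the 6 arrays called no member. The fits have 2 residual degrees of freedom and little power for differences as small as those of the members. The lack of calls therefore does not show that the members were alike between groups. The residual in the fit of genotype plus time is how much the genotype difference varied between times, not the spread between animals. For genotype with time as a factor, limma called 4 of 11153 genes (0.0359%) at a Benjamini-Hochberg adjusted p under 0.05 and 0 members. At an unadjusted p under 0.05 there were 2 members, with 17.4% of all genes. Among members the smallest adjusted p was 0.273, in Ndufa4l2 with a coefficient of -0.39 ± 0.15 (SE), and Ndufv3 followed with 0.43 ± 0.17 and an adjusted p of 0.284. For hCG, limma called 1135 genes (10.2%) and 0 members. At an unadjusted p under 0.05 there were 2 members, with 30.1% of all genes. These were Atp5d, with 0.51 ± 0.14 (SE) and an adjusted p of 0.0727, and Ndufa5, with -0.41 ± 0.16 and 0.15.

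For the difference of the hCG response between genotypes, limma called 0 genes (0.00%), and so 0 members. The residual in this fit is the change from 2.5 to 4 h within each genotype, which is itself part of the response. At an unadjusted p under 0.05 there were 3 members and 1015 genes (9.10%). The 3 members were Ndufs8, with a coefficient of 0.76 ± 0.27 (SE) and an adjusted p of 0.543, Cox5b and Uqcrq. The coefficient was positive in 72 of 76 members and in 69.0% of all genes, with a median of 0.44 and 0.20.

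The preparation's other transcripts differed between the same arrays. The 9 granulosa markers summed to 93778, 73101 and 64615 in wild type cells and 89521, 113167 and 111763 in knockout cells, lower in 9 of 9 genes in wild type cells at 4 h with a median log2 difference of -0.89. The 5 measured theca markers summed to 36632, 27816 and 21542 in wild type cells and 36381, 54126 and 55108 in knockout cells. Lhcgr is on both the granulosa and the theca list, so these sums may not be separate readings. The part of these lists in the subunit values was not tested, nor was that of the Gapdh ratio. In bulk RNA, fewer cells of a type and less RNA per cell cannot be told apart.

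Lists of other mitochondrial genes showed how far the subunits' values were shared. The 43 assembly factors of the respiratory chain over the floor had a median of -0.47 in wild type cells at 4 h and -0.06 in knockout cells. Of these 43, 18 were at least 1.5-fold lower in wild type cells (25.2% of all genes) and 0 higher (8.69%). These counts use values as deposited, and the like count of subunits fell when arrays were centred on all genes. Cmc1, a factor for complex IV, read 355, 244 and 143 in wild type cells and 385, 254 and 190 in knockout cells, low in both genotypes. Ndufaf3, a factor for complex I, read 218, 177 and 120 in wild type cells and 190, 244 and 204 in knockout cells.

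Electron carriers and partners of the chain (19 genes) had medians of -0.28 in wild type cells and 0.03 in knockout cells at 4 h. Etfdh, which feeds electrons from fat oxidation to ubiquinone, read 1212, 990 and 674 in wild type cells and 1197, 1169 and 1165 in knockout cells. Cyc1, the cytochrome subunit of complex III that the symbol rule leaves out, read 6238, 5488 and 5636 in wild type cells and 6629, 8339 and 9362 in knockout cells. Cycs, which encodes cytochrome c, was higher at 4 h in both, by 0.35 and 0.42.

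The medians in wild type and knockout cells at 4 h were -0.35 and 0.07 for 18 TCA cycle genes, -0.30 and 0.08 for 74 mitochondrial ribosome genes, 0.01 and 0.34 for 22 import genes, -0.20 and 0.04 for 33 cytosolic ribosome genes and -0.33 and 0.04 for 16 glycolysis genes. Set against the -0.21 and 0.02 of all genes, the assembly factors lay nearest to complexes I and II in wild type cells. Import genes stood above all genes in both genotypes.

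**Figure D5:**
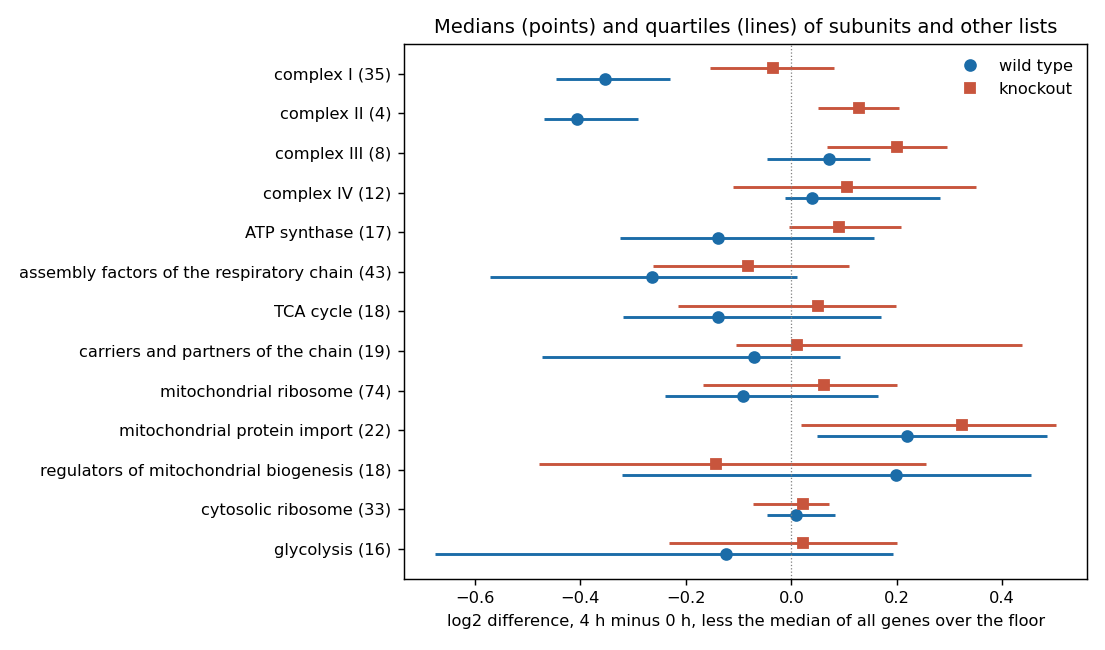
Median (points) and quartiles (lines) of the log2 difference at 4 h against 0 h less the all-gene median (horizontal axis), for the subunits by complex and for other lists (vertical axis, with the number of genes), wild type as blue circles and knockout as red squares. Complexes I and II lie at -0.35 and -0.41 in wild type cells, the assembly factors at -0.27 and the cytosolic ribosome at 0.01.

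Regulators of mitochondrial gene expression were on the array as well. Ppargc1a, which encodes the coactivator PGC-1alpha, was under the floor at 14 to 25. Nrf1 read 343, 326 and 370 in wild type cells and 484, 390 and 329 in knockout cells, and Gabpa 898, 978 and 1088 against 922, 836 and 1163. Gabpb1, the partner of Gabpa, read 315, 440 and 514 in wild type cells and 350, 349 and 270 in knockout cells, highest in wild type at 4 h. Nrip1, a corepressor of oxidative genes, read 4156, 2692 and 1836 in wild type cells and 4320, 3454 and 4136 in knockout cells, lowest in wild type at 4 h.

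Motif matches were also counted by wild type values, with no test. Of the members at least 1.5-fold lower in wild type cells at 4 h that had a promoter window, 9 of 18 held at least 1 motif, and of the other members over the floor 26 of 44 did. Where a member had more than 1 probe set over the floor (45 members with 68 further probe sets), 86.8% of the further probe sets had the direction of the brightest in wild type cells at 4 h, and 76.5% had it for knockout against wild type at 4 h.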

How the data were processed

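Total RNA from ovarian granulosa cells was hybridised to Affymetrix arrays, 1 per genotype and time. The values are intensities of 45101 probe sets that the authors made with RMA in the affy package, per the submitters' processing notes, whose versions are not given in the sources used here. As deposited, the intensities were linear whole numbers from 9 to 59425, and log2 was taken. The number of arrays limits the precision.

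Probe sets were named through the platform annotation: 34958 had 1 gene symbol, 932 several and 9211 none, and only the first were used. The brightest probe set by mean log2 stood for a gene, and 33 members had 1 probe set. A further 8 symbols of the rule (Ndufs6 and Ndufa11 among them) stood only on probe sets of several genes and were left out. All 82 members matched a RefSeq gene ID. Genes with a mean log2 of at least 6 were compared. A member counted as different at 1.5-fold or 2-fold with at least log2 6 on the brighter of the 2 arrays.

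Limma 3.58.1 in R 4.3.3 fitted genotype plus time, and a model with both times after hCG in 1 cell per genotype for the difference in response, with Benjamini-Hochberg adjustment over 11153 genes. The fits were tested on simulated data. The smallest differences planted there were 2-fold, larger than that of any member by its brightest probe set, and none of these were recovered. Differences as small as those of the members were not simulated. Fewer genes were changed there than the hCG fit called in the real data. The simulated noise had the residual spread of the fit of genotype plus time, which includes real changes of the genotype difference between times. Genes named with all 6 intensities were the brightest and the extreme members of each complex, the limma extremes, complex II and the tissue forms, with others chosen after their values were seen. The members and lists were chosen with earlier results of these data known. Alternatives were the mean of all probe sets, no s_at or x_at probe sets, cyclic loess, centring on all genes, no floor, a floor of log2 7, the 0 h array of the other genotype, a trended prior and fits without both arrays of a time. Centring on genes of mean log2 10 or more was added after seeing the data. The comparisons share arrays and are not independent.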

Additional observations from a re-analysis of the deposited data

Results flagged for a closer look

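At both times after hCG the median response of the members was below 0 in wild type and above 0 in knockout cells, an order that depends on the scaling. Under cyclic loess the knockout median at 4 h was 0.0023, with 38 members above 0 and 38 below, and under centring on bright genes it was 0.0051, with 39 above and 37 below. The wild type median at 2.5 h lay between -0.018 and -0.0032 under the 3 other scalings. In complex I the knockout median at 4 h was below 0 as deposited (-0.02). Knockout minus wild type, the median log2 difference of the response was 0.39 at 2.5 h and 0.50 at 4 h over the 76 members, and 0.15 and 0.22 over all genes. In complex I it was 0.39 at 2.5 h and 0.54 at 4 h, and in complex II 0.42 at 2.5 h and 0.75 at 4 h. In complex III it was 0.39 and 0.32, in complex IV 0.38 and 0.26, and in ATP synthase 0.41 and 0.46. Once arrays were centred on all genes, complexes III and IV were above 0 in both genotypes at 4 h. With 1 array per group these differences in medians were not tested. The limma test of the difference in response called 0 members, and it has little power for differences of this size. The 2 responses compared at each time share no array, but the values at 2.5 h and 4 h share both arrays at 0 h.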

How the results depend on the processing

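No paired analysis was possible because each group has 1 array and the labels carry no replicate numbers, beyond the limma fit with time as a factor, which sets genotypes against each other within times. A median counted as moved when it shifted by at least 0.1 on the log2 scale. Of the 67 recomputed medians over all members, 50 stayed within that, 16 moved and 1 changed sign: set against wild type cells at 0 h, the knockout median at 4 h was -0.062 in place of 0.08. The matching exchange of 0 h arrays gave -0.080 and -0.22 in wild type at 2.5 and 4 h and 0.024 in knockout at 2.5 h. Under cyclic loess, centring on all genes and centring on bright genes in turn, the knockout to wild type median was 0.030, 0.082 and 0.023 at 2.5 h and 0.090, 0.11 and 0.083 at 4 h, and the wild type median was -0.018, -0.0073 and -0.0032 at 2.5 h and -0.23, -0.21 and -0.23 at 4 h. It was -0.26 at 4 h with the mean of all probe sets. Members at least 1.5-fold lower in wild type at 4 h numbered 12 with the mean of probe sets and 2 under each of those 3 scalings, and 2 were higher under centring on all genes. At 2.5 h in wild type, 1 was higher under the mean of probe sets and each of the 3 scalings. Members 1.5-fold higher in knockout than wild type at 4 h numbered 3 with the mean, 1 under loess, 1 under centring on all genes and 0 under centring on bright genes. With the floor at log2 7, 0 were lower at 0 h. In knockout cells at 2.5 h, 0 were higher without s_at and x_at probe sets, 0 under loess, 2 under centring on all genes and 0 on bright genes. At 4 h they numbered 1 with the mean, 0 without s_at and x_at, 1 under loess, 0 under centring on all genes and 0 on bright genes. Of 315 medians recomputed by complex, 28 changed sign. Under loess, centring on all genes and centring on bright genes, complex IV for knockout against wild type at 4 h went from 0.17 to -0.060, -0.030 and -0.057, and complex III in wild type at 4 h from -0.13 to 0.036, 0.072 and 0.053. Complex IV in wild type at 4 h (-0.17) changed sign under both centrings, to 0.040 and 0.021. The medians of complexes I and II in wild type at 4 h stayed negative under the settings tried. Near the floor of 64, small differences are least reliable.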
